A study of Mus musculus with 13 samples.

Results

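The 10 genes described here are Klk1 and 9 of its paralogs, Klk1b1, Klk1b3, Klk1b4, Klk1b5, Klk1b21, Klk1b22, Klk1b24, Klk1b26 and Klk1b27. They were taken by symbol from a table of 35013 gene rows, and all 10 were found in it. They were selected on the counts of the Spns1 KO-labelled libraries, from which Klk1b22 was nearly absent, so values of that group for these genes are given as a description, without a test. RNA of the kidney was compared in a genetic and an injected model of iron overload and in control mice, with 4 Spns1 KO-labelled libraries, 5 labelled WT and 4 labelled FeO. All mice were labelled female, carried Megalin3'Cre-Ert and 1 Uprt flox allele, and received tamoxifen. Cre came from the megalin promoter, which is active in the proximal tubule. The methods give the Spns1 KO mice the genotype Spns1 flox/flox and the WT and FeO mice Spns1 flox/+, so the controls also had 1 floxed allele, although their label reads Spns1 WT. FeO mice were given 12 mg of iron by injection daily for 3 days, and their kidneys were taken after 1 week. Ages were not given in the sources used here. Cells with recombined Uprt build 4-thiouracil into new RNA, which was then captured from the whole kidney, so the libraries were meant to hold new RNA of the proximal tubule.

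The counts were estimated counts per gene. The libraries held 31809135 to 71296474 counts in the Spns1 KO-labelled group, 23068023 to 37362311 in WT and 25986133 to 29981814 in FeO. Levels are given as CPM, counts relative to the TMM-scaled library total. Spns1 itself did not separate the groups, with 36.6 to 59.0 CPM in the Spns1 KO-labelled libraries, 39.2 to 62.9 CPM in WT and 39.0 to 58.7 CPM in FeO. Its log2 fold change in the Spns1 KO-labelled libraries was -0.31 (adjusted p = 0.225, edgeR). The floxed allele loses 1 exon, whereas the count covers all exons. Whether this bears on the Spns1 level was not tested, as counts per exon were not available. The paper reports loss of Spns1 RNA and protein from the proximal tubule in its conditional knockouts, and the controls shown for the protein were Spns1 flox/flox. The WT mice here carried Cre and 1 floxed allele, so the comparison differs. The counts used here do not show such a loss. The group is therefore named by its label throughout. The proximal tubule marker Lrp2, which encodes megalin, lay between 389 and 1387 CPM over all libraries, but Slc12a3, the sodium chloride cotransporter of the distal convoluted tubule, also lay between 282 and 1910 CPM. The captured RNA was thus not limited to proximal tubule transcripts. In such bulk RNA, fewer cells of a type and less RNA per cell cannot be told apart. The labels do not say that libraries of a group came from separate animals, so a p-value measures the spread between these libraries, which may be technical.

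Tissue kallikreins are secreted serine proteases. In the kidney, the product of Klk1 is made mainly in the connecting tubule and distal convoluted tubule, where it releases vasodilator peptides, the kinins, from kininogen and can cleave the epithelial sodium channel. Rodents carry many close copies of this gene side by side, the Klk1b genes, several of which are best known from the salivary gland, where androgens raise their expression. Their products include subunits and processing enzymes of growth factor complexes, such as Klk1b3 and Klk1b4 for nerve growth factor. Klk1b22 is known as the epidermal growth factor-binding protein type A.

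The members lie on chromosome 7 of GRCm38 (mm10) within chr7:43966751-44229618, a span of 263 kb, all on the plus strand. In order along the chromosome they are Klk1b1, Klk1b26, Klk1b27, Klk1b21, Klk1b22, Klk1b24, Klk1b3, Klk1b4, Klk1b5 and Klk1. Spns1 lies on the same chromosome, 82.1 Mb away. Klk1b22 occupies chr7:44112673-44116922 and Klk1 occupies chr7:44225360-44229618, at the end of the cluster. Both have 5 exons in the transcripts used. Klk1 overlaps the gene Gm10109 and Klk1b1 overlaps Gm44756, and the sources do not say that strand was used in counting, so reads of these overlaps cannot be assigned with certainty. Over the 45 pairs of members, the coding sequences were 82.4 to 95.1% identical (median 86.4%). Klk1 and Klk1b22 were 84.4% identical, and the closest pair with Klk1 was Klk1b5 at 95.1%.

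Because a read can be assigned only where paralogs differ, the share of each gene's 31-base sequences that also occurs in another gene was counted in the GENCODE transcripts. It was 41.1% for Klk1b22 and 40.5% for Klk1, and over the 10 members it ran from 27.8% for Klk1b5 to 58.4% for Klk1b24. Of the 825 sequences of Klk1b22, 486 (58.9%) occurred in no other gene and 7.88% occurred in Klk1. Of the sequences of Klk1b5, 22% occurred in Klk1, the highest share with Klk1 among the 9 paralogs. Exon 2 holds a stretch where Klk1 and Klk1b22 are easily told apart, coding bases 111 to 170 of both. It is shown because, of the gap-free windows of 60 bases in their aligned coding sequences, it holds the most differences. The 18 of 60 bases that differ are in capitals (70.0% identical). The stretch is chr7:44227585-44227644 for Klk1 and chr7:44114760-44114819 for Klk1b22, plus strand. Whether it also differs from the other paralogs was not examined.

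Klk1: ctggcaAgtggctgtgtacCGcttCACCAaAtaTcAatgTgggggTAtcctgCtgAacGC
Klk1b22: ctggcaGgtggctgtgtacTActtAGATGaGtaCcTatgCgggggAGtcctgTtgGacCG

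The promoters were read from RefSeq (GRCm38.p6), as 250 bases before to 50 bases after the annotated start of each of the 10 members. They are shown for Klk1b22 and Klk1, the members that did not overlap between WT and the Spns1 KO-labelled libraries, and for Klk1b5, the closest paralog of Klk1. This is a choice for display, made on the group on which the members were selected. The share of all genes without such overlap was not counted. A search for the letters TTTAAA on both strands (they read the same on each) found them in the windows of 9 of 10 members, against 13.2% of all 32851 promoters of that length. The members are close copies of each other, so their windows do not count as separate observations against that share. In 8 of the 9 the letters lay 13 to 48 bases before the start, 40 bases before it in Klk1b22 and 42 bases before it in Klk1b5. They are in capitals below. The Klk1 window at chr7:44225110-44225409 did not hold these letters. It ended, however, on the stretch that lies just before them in Klk1b22 and Klk1b5. The bases that follow in Klk1 were not searched, so a lack of the letters there is not shown. The windows of Klk1b22 and Klk1b5 are chr7:44112423-44112722 and chr7:44216224-44216523, all on the plus strand.

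Klk1b22: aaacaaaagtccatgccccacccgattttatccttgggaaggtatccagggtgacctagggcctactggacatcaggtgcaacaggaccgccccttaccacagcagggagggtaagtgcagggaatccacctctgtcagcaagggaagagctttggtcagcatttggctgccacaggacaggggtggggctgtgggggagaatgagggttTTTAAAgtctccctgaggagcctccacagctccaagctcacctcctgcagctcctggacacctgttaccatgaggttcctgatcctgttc
Klk1b5: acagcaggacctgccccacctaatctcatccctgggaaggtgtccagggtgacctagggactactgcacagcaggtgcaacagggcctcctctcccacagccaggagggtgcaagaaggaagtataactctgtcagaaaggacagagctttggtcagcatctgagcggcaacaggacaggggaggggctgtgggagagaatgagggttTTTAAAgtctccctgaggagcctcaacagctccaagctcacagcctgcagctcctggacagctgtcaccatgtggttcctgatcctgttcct
Klk1: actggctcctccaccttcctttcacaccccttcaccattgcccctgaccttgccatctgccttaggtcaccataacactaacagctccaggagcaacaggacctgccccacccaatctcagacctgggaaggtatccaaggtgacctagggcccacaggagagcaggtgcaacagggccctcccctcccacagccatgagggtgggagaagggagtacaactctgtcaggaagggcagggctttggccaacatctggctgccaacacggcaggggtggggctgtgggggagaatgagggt

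Klk1 was the most abundant member in every library. It stood at 354, 391, 276, 247 and 370 CPM in WT libraries 1 to 5, at 1142, 1936, 1190 and 1184 CPM in Spns1 KO-labelled libraries 1 to 4, and at 477, 170, 308 and 955 CPM in FeO 1 to 4. All 4 Spns1 KO-labelled libraries lay above every WT and FeO library, whereas the FeO libraries spread to both sides of WT. The means were 328 ± 62.5 CPM over the 5 WT libraries (SD), 1363 ± 383 over the 4 Spns1 KO-labelled libraries (SD) and 478 ± 342 over the 4 FeO libraries (SD). The log2 fold change against WT was 2.06 (standard error 0.37) in the Spns1 KO-labelled libraries, a 4.16-fold higher level. In FeO it was 0.54 (standard error 0.36, adjusted p = 0.230, edgeR quasi-likelihood), which did not pass the test.

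Klk1b22 showed the reverse arrangement. Its counts were 2723, 2546, 1795, 1049 and 1557 in WT libraries 1 to 5 and 1707, 416, 1123 and 1838 in FeO 1 to 4, but 45, 42, 16 and 36 in Spns1 KO-labelled libraries 1 to 4. On the CPM scale this was 74.1, 78.4, 56.5, 37.1 and 60.1 in WT, 56.0, 13.5, 44.3 and 68.9 in FeO, and 0.671, 1.14, 0.534 and 0.849 in the Spns1 KO-labelled libraries. The lowest WT or FeO library, FeO 2, was thus far above the highest Spns1 KO-labelled library. The log2 fold change of the Spns1 KO-labelled libraries was -6.26 (standard error 0.47), a 76.5-fold lower level that rests on 139 counts in all 4 libraries together. FeO overlapped WT (log2 fold change -0.42, standard error 0.35, adjusted p = 0.326, edgeR).

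**Figure D1:**
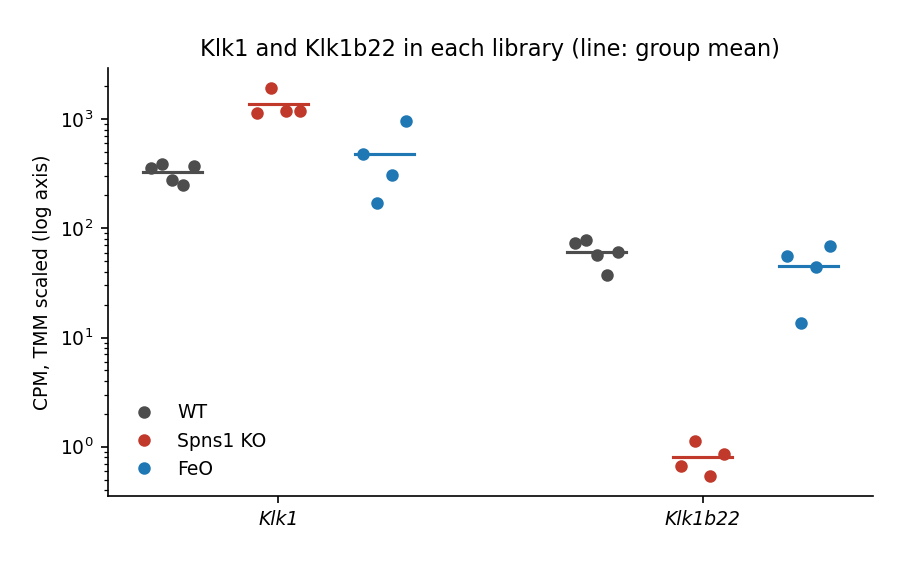
Level of Klk1 and Klk1b22 in each library, in TMM-scaled CPM on a log axis. Points are libraries (5 WT, 4 labelled Spns1 KO, 4 FeO) and lines are group means. The Spns1 KO-labelled libraries lie above all others for Klk1 (1142 to 1936 CPM) and below all others for Klk1b22 (0.534 to 1.14 CPM).

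As a part of all counts of the 10 members, Klk1b22 held 17.1, 16.6, 16.8, 12.9 and 13.7% in WT libraries 1 to 5. It held 10.4, 7.23, 12.4 and 6.66% in FeO 1 to 4. The Spns1 KO-labelled libraries had shares of 0.0584, 0.0583, 0.0446 and 0.0711%. The 95% Wilson intervals of these last 4 shares lay between 0.0275 and 0.0984%, and such intervals cover counting error only. All FeO libraries lay below all WT libraries in this share, although the level of Klk1b22 itself overlapped, and the share was examined after its values were seen. Klk1 made up 83.4 ± 1.80% of the members' counts in WT (SD, n = 5), 99.3 ± 0.165% over the 4 Spns1 KO-labelled libraries (SD) and 89.6 ± 2.79% over the 4 FeO libraries (SD).

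**Figure D2:**
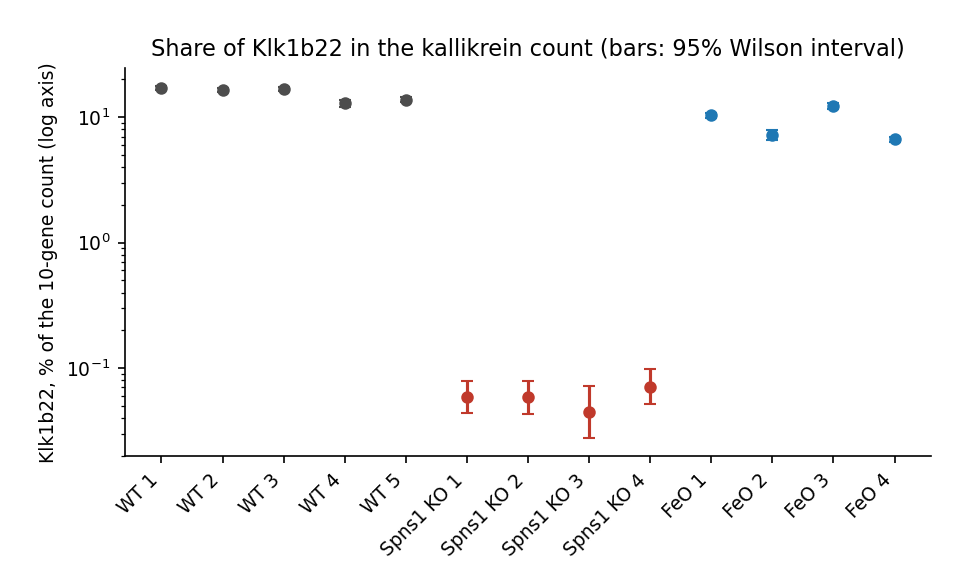
Share of Klk1b22 in the summed count of the 10 kallikrein genes in each library, in percent on a log axis. Points are libraries and bars are 95% Wilson intervals. WT lies at 12.9 to 17.1%, FeO at 6.66 to 12.4% and the Spns1 KO-labelled libraries at 0.0446 to 0.0711%.

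Because paralogs share sequence, the 10 rows were also summed. Their sum was 394 ± 78.1 CPM over the 5 WT libraries (SD), 1372 ± 384 over the 4 Spns1 KO-labelled libraries (SD) and 529 ± 366 over the 4 FeO libraries (SD). A fit of the sum as a single row gave a log2 fold change of 1.80 (standard error 0.36) in the Spns1 KO-labelled libraries and 0.43 (standard error 0.36) in FeO. The direction in the sum was that of Klk1, which supplies most of it. For each 1000 counts of Klk1, Klk1b22 had 150 to 209 counts in WT and 72.1 to 144 in FeO. It had 0.449 to 0.717 in the Spns1 KO-labelled libraries. Of the 31-base sequences of Klk1, 6.05% occur in Klk1b22, and whether the remaining 139 counts came from Klk1b22 or from reads of its paralogs was not tested.

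Klk1b5 was the most abundant of the other 8 members. It stood at 1.36, 1.14, 1.23, 1.41 and 3.09 CPM in WT libraries 1 to 5, at 2.43, 4.65, 3.51 and 4.62 CPM in Spns1 KO-labelled libraries 1 to 4 and at 2.39, 1.20, 2.45 and 4.83 CPM in FeO 1 to 4. WT 5 lay inside the range of both other groups. Its log2 fold change was 1.21 (standard error 0.38) in the Spns1 KO-labelled libraries and 0.73 (standard error 0.39, adjusted p = 0.133, edgeR) in FeO. Its counts cannot be separated with certainty from those of Klk1, and per 1000 counts of Klk1 there were 2.92 to 8.35 of Klk1b5 in WT, 2.13 to 3.91 in the Spns1 KO-labelled libraries and 5.01 to 7.94 in FeO.

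Klk1b3, the gamma subunit gene of the nerve growth factor complex, had 17 to 32 counts in WT, 34 to 74 in the Spns1 KO-labelled libraries and 16 to 57 in FeO. Its level was 0.545, 0.801, 0.756, 0.601 and 1.24 CPM in WT libraries 1 to 5 and 0.686, 1.46, 1.14 and 1.75 CPM in Spns1 KO-labelled libraries 1 to 4. In FeO 1 to 4 it was 0.721, 0.519, 1.34 and 2.14 CPM. The 3 groups overlapped, with log2 fold changes of 0.67 (standard error 0.41) in the Spns1 KO-labelled libraries and 0.58 (standard error 0.42, adjusted p = 0.266, edgeR) in FeO.

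Klk1b21 averaged 0.559 ± 0.188 CPM over the 5 WT libraries (SD) and 0.550 ± 0.274 over the 4 Spns1 KO-labelled libraries (SD). Its values were 0.517, 0.739, 0.378, 0.389 and 0.772 CPM in WT libraries 1 to 5, and 0.551, 0.460, 0.267 and 0.920 CPM in Spns1 KO-labelled libraries 1 to 4. FeO 1 to 4 had 0.164, 0.260, 0.276 and 0.450 CPM, from 5 to 12 counts. Its log2 fold changes were -0.01 (standard error 0.40) and, in FeO, -0.96 (standard error 0.43, adjusted p = 0.0815, edgeR), the lowest adjusted p of the members in FeO.

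Klk1b24 shares 34.1% of its 31-base sequences with Klk1b21. It had 0.653, 0.678, 0.441, 0.247 and 1.20 CPM in WT libraries 1 to 5, 0.686, 1.08, 0.935 and 1.32 CPM in Spns1 KO-labelled libraries 1 to 4, and 0.557, 0.357, 0.631 and 0.712 CPM in FeO 1 to 4. Klk1b27 had 0.762, 1.05, 0.913, 0.530 and 0.734 CPM in WT libraries 1 to 5, 0.850, 1.97, 1.07 and 1.04 CPM in Spns1 KO-labelled libraries 1 to 4, and 0.623, 0.292, 0.316 and 1.46 CPM in FeO 1 to 4. Both overlapped between all groups. The log2 fold changes in the Spns1 KO-labelled libraries were 0.64 (standard error 0.39) for Klk1b24 and 0.62 (standard error 0.43) for Klk1b27. In FeO they were -0.19 (standard error 0.41, adjusted p = 0.724, edgeR) and -0.25 (standard error 0.45, adjusted p = 0.662, edgeR).

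The remaining 3 members did not pass the count filter and were not tested. Klk1b1, which lies at the other end of the cluster from Klk1, had 0 to 7 counts in WT, 5 to 13 in the Spns1 KO-labelled libraries and 0 to 5 in FeO. Klk1b4, the alpha subunit gene of the nerve growth factor complex, had 0 to 14, 9 to 11 and 1 to 7 counts in these groups. Klk1b26, known as the epidermal growth factor-binding protein type B, had 0 or 1 count in every library. In sum, the members other than Klk1 and Klk1b22 had 4.71 ± 1.68 CPM over the 5 WT libraries (SD), 8.34 ± 2.21 over the 4 Spns1 KO-labelled libraries (SD) and 5.61 ± 3.02 over the 4 FeO libraries (SD).

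Divided by transcript length, mean levels in WT ran from 343 CPM per kb for Klk1 through 71.6 for Klk1b22 and 1.18 for Klk1b5 to 0.00445 for Klk1b26. In WT the ranges of Klk1, Klk1b22 and Klk1b5 did not touch, and from Klk1b5 downwards each member overlapped the next in the order. In FeO the first 3 places were the same and again apart. In the Spns1 KO-labelled libraries, Klk1b22 at 0.933 CPM per kb stood in place 6, overlapping Klk1b24 above it (1.15 CPM per kb) and Klk1b21 below it (0.631 CPM per kb). The ratio of Klk1 to Klk1b22 per kb was 4.79 in WT, 9.38 in FeO and 1531 in the Spns1 KO-labelled libraries.

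Of the 7 members tested, edgeR called 0 up- and 0 downregulated in FeO, where 22.4% of 16468 tested genes were called higher and 19.7% lower. Calls required an adjusted p under 0.05 together with an absolute log2 fold change above 0.5. At an unadjusted p under 0.05, 1 of the 7 members passed, Klk1b21 with a lower level, and DESeq2 and limma-voom also called 0. The median log2 fold change of the 7 was -0.19 in FeO, against -0.01 over all genes tested. In the Spns1 KO-labelled libraries, on which the members were chosen, the median of the 7 was 0.64, against -0.05 over all genes. Both comparisons use the same WT libraries.

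**Figure D3:**
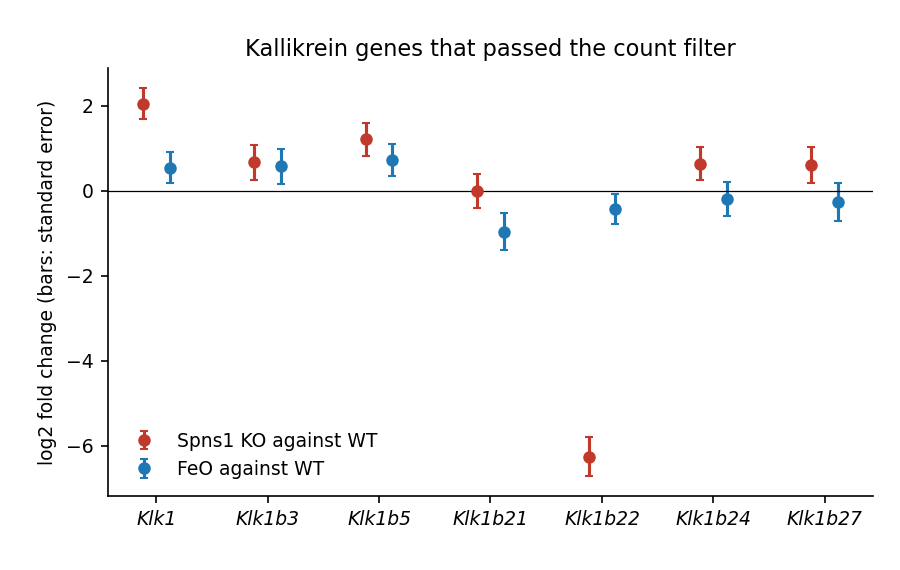
Log2 fold change against WT of the 7 kallikrein genes that passed the count filter, for the Spns1 KO-labelled libraries and for FeO. Points are edgeR estimates and bars are standard errors. In the Spns1 KO-labelled libraries, Klk1 is at 2.06 and Klk1b22 at -6.26, whereas in FeO the 7 genes lie between -0.96 and 0.73.

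The FeO calls of the members depended on single libraries. Without FeO 2, which had the lowest Klk1 and Klk1b22, Klk1 and Klk1b5 were called higher (log2 fold changes 0.84 and 0.99, adjusted p = 0.0384 and 0.0400, edgeR). Without FeO 4, the highest for Klk1, the log2 fold change of Klk1 was -0.01 and Klk1b21 was called lower (-1.23, adjusted p = 0.0498, edgeR), and without WT 5 Klk1b5 was called higher (1.09, adjusted p = 0.0270, edgeR). With library-wise trends on length and GC removed, Klk1b21 and Klk1b22 were called lower in FeO (-1.41 and -0.90, adjusted p = 0.0199 and 0.0431, edgeR). The adjusted p over all alternatives ran from 0.0384 to 0.972 for Klk1, from 0.0270 to 0.50 for Klk1b5, from 0.0199 to 0.215 for Klk1b21 and from 0.0431 to 0.740 for Klk1b22.

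Markers of the distal nephron, the usual site of Klk1, were set beside these levels. The sum of 7 markers of the distal convoluted and connecting tubule was 530 to 2031 CPM in WT, 1359 to 2299 CPM in the Spns1 KO-labelled libraries and 629 to 2245 CPM in FeO. None of the 7 was at 0 in any group. Of the 7, 2 were called higher and 1 lower in the Spns1 KO-labelled libraries, where 14.0% of all tested genes were called higher and 7.55% lower. In FeO, 1 was called higher, beside the shares of 22.4 and 19.7% of all genes given above. Per 100 CPM of this sum, Klk1 had 12.2 to 66.8 CPM in WT, 51.5 to 108 in the Spns1 KO-labelled libraries and 21.3 to 48.5 in FeO. On this scale the Spns1 KO-labelled libraries overlapped WT. Most of this sum was Slc12a3, with means of 632 of 989 CPM in WT and 1269 of 1795 CPM in the Spns1 KO-labelled libraries. In these libraries the log2 fold changes were 1.00 for Slc12a3, 2.71 for Pvalb and 1.54 for S100g. Those of Calb1, Trpv5, Slc8a1 and Trpm6 were 0.31, -0.13, -0.58 and -1.09. The overlap thus holds for the sum and was not examined for each marker. Klk1b22 per 100 CPM of the same sum was 1.82 to 14.0 in WT and 2.15 to 4.24 in FeO, but 0.0369 to 0.0631 in the Spns1 KO-labelled libraries, which thus remained apart. The part of distal cells in the level of Klk1 was not tested.

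**Figure D4:**
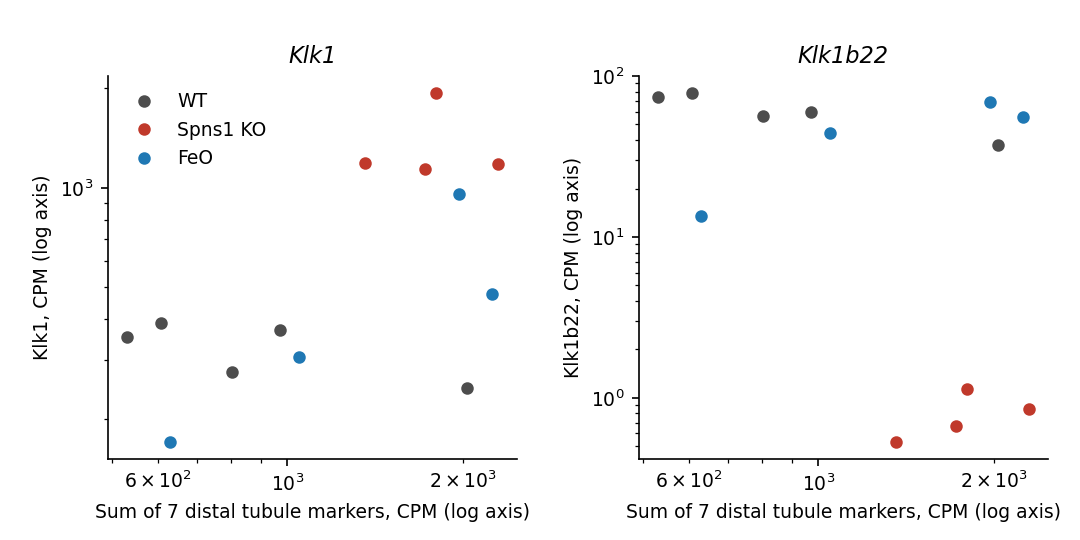
Levels of Klk1 (left) and Klk1b22 (right) in CPM against the summed CPM of 7 markers of the distal convoluted and connecting tubule, both on log axes, with 1 point per library. WT 4, at a marker sum of 2031 CPM, has 247 CPM of Klk1, below all Spns1 KO-labelled libraries (1142 to 1936 CPM). The Spns1 KO-labelled libraries lie below all others for Klk1b22 at marker sums that the other groups also reach.

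The summed level of 8 proximal tubule markers also separated the Spns1 KO-labelled libraries (6276 to 7124 CPM) from WT (3354 to 4765 CPM) and FeO (1603 to 4457 CPM). Of these, 5 were called higher in the Spns1 KO-labelled libraries, and 1 higher and 1 lower in FeO. A list of 7 genes that androgens raise in mouse kidney summed to 945 to 1212 CPM in WT, 4325 to 5668 CPM in the Spns1 KO-labelled libraries and 940 to 6947 CPM in FeO, most of it from Kap, the kidney androgen-regulated protein gene. Of the 7, 3 were called higher in the Spns1 KO-labelled libraries and 5 in FeO, and the shares over all genes given for the distal markers apply to these lists too. The summed markers of the thick ascending limb (3 genes) were 1293 to 2761, 2176 to 2973 and 1476 to 3788 CPM in WT, the Spns1 KO-labelled libraries and FeO, those of principal cells (7 genes) 308 to 553, 286 to 426 and 505 to 1304 CPM, and those of intercalated cells (4 genes) 173 to 291, 153 to 217 and 162 to 581 CPM. Called higher in FeO were 1 of the 3, 5 of the 7 (median log2 fold change 1.19) and 2 of the 4. In the Spns1 KO-labelled libraries, 1, 1 and 2 were called higher and 0, 1 and 1 lower. Exocrine tissue was checked with 8 markers, all pancreatic apart from the amylase gene Amy1, so salivary gland was hardly covered. Their sum was 17.3 to 29.9 CPM over all libraries, of which Amy1 alone had 16.6 to 29.3 CPM. Prss2 and Pnlip were at 0 in all libraries. The part of these differences in the kallikrein values was not tested.

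Genes whose pattern over the 13 libraries was most like that of Klk1 were Pvalb (r = 0.979 of log2 CPM), Dpep1 (0.962), Slc22a17 (0.962), Cd74 (0.960) and Cox7c (0.955). These correlations are a description over libraries that share their groups. Pvalb, the calcium buffer parvalbumin of the early distal convoluted tubule, had 0.601 to 1.48 CPM in WT, 5.72 to 8.68 CPM in the Spns1 KO-labelled libraries and 6.30 CPM in FeO 4, the FeO library with the highest Klk1. Its other FeO libraries lay between 0.552 and 1.25 CPM. For Klk1b22 the nearest genes were Eif1a (r = 0.957), Klf5 (0.940), Gm5815 (0.933), Gm6685 (0.931) and Rhou (0.929). Gm5815 was at 0 in every Spns1 KO-labelled library, with 0.817 to 1.51 CPM in WT and 0.328 to 0.434 CPM in FeO, and Gm6685 had 0 to 0.0541 CPM there against 0.490 to 0.927 CPM in WT. The differences of the other 3 were smaller, such as a mean of 50.1 CPM of Eif1a in the Spns1 KO-labelled libraries against 66.7 CPM in WT. Among members, Klk1b5 followed Klk1 most closely (r = 0.819). Klk1 and Klk1b22 had r = -0.73 over all 13 libraries, which include the Spns1 KO-labelled group on which the members were chosen. Inside groups they were not opposed. Both genes ranked the FeO libraries in the same order, with FeO 2 lowest and FeO 4 highest. In WT both were lowest in WT 4 and highest in WT 2.

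The table holds 27 further genes named Klk, 14 of them Klk1b genes. Of the 27, 8 had no count in any library. No other Klk1b gene exceeded 82 counts in a library. Of the 14, 5 passed the count filter. Of these 5, edgeR called 0 in the Spns1 KO-labelled libraries, where 2 were higher at an unadjusted p under 0.05. In FeO, 2, named here after their values were seen, were called, beside 22.4% of all genes called higher and 19.7% lower. Klk1b9 had 0.324 to 2.16 CPM in FeO against 0.378 to 0.927 CPM in WT (log2 fold change 1.30, adjusted p = 0.0421, edgeR), and the pseudogene Klk1b7-ps had 0.118 to 0.787 CPM against 0.353 to 1.39 CPM (log2 fold change -1.49, adjusted p = 0.0407, edgeR). Counts of both are subject to the same uncertainty from shared sequence.

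Genes on either side of the members were examined to see whether the pattern of Klk1b22 extended along the chromosome. Of the 20 nearest tested genes, 10 at each end within chr7:43472904-44496529, 6 were called higher (Klk8, Clec11a, Syt3, Aspdh, Josd2 and Emc10) and 0 lower in the Spns1 KO-labelled libraries by edgeR. At an unadjusted p under 0.05, 1 was lower, and DESeq2 and limma-voom called 1 lower. Their log2 fold changes ran from -0.68 to 2.28 with a median of 0.12. Over all genes tested, 14.0% were called higher and 7.55% lower. The 4 non-member genes inside the cluster, Klk1b9, Klk1b11, Klk1b16 and Gm10109, were not called there. The lowest log2 fold change among these 24 genes was -0.94 for Klk1b16 (standard error 0.80, adjusted p = 0.410, edgeR), which lies next to Klk1b22 on the side of Klk1. Klk8, another secreted protease gene, had 0.236 to 0.601 CPM in the Spns1 KO-labelled libraries and 0.0353 to 0.136 CPM in WT, from at most 35 counts.

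**Figure D5:**
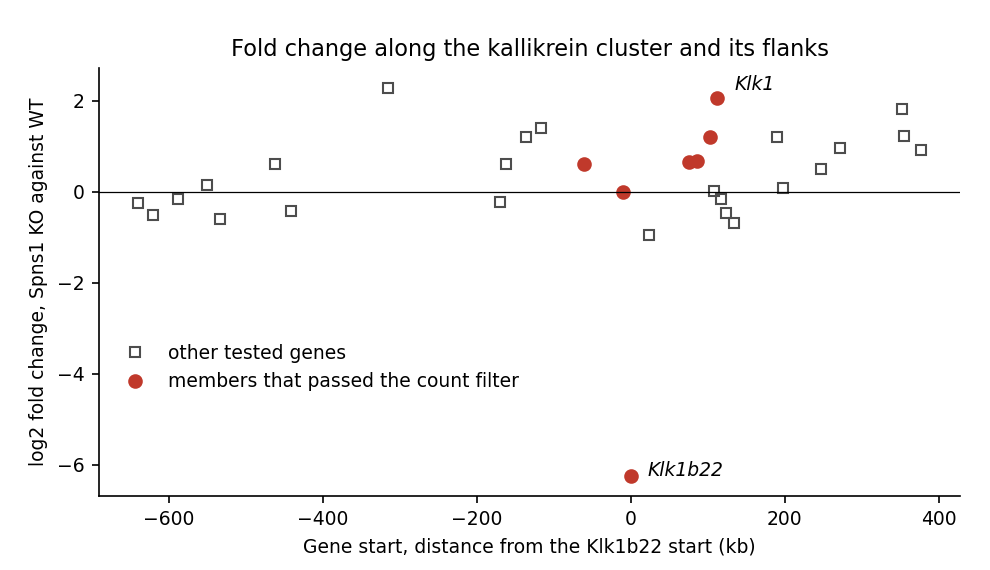
Log2 fold change of the Spns1 KO-labelled libraries against WT for each tested gene of the cluster and its flanks, by the distance of the gene start from that of Klk1b22 in kb. Filled circles are the 7 members that passed the count filter and open squares the 24 other tested genes. Klk1b22 is at -6.26, and the other genes lie between -0.94 and 2.28.

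The kallikrein-kinin system beyond the kallikreins was followed with a list of 28 genes, of which 25 were tested. Of these, 8 were upregulated and 2 downregulated in the Spns1 KO-labelled libraries, with a median log2 fold change of 0.30, where 14.0% of all genes tested were called higher and 7.55% lower. In FeO, 4 were upregulated and 0 downregulated by edgeR, with a median of 0.06, where 22.4% of all genes were called higher and 19.7% lower. At an unadjusted p under 0.05, 0 of the 25 were lower in FeO, and DESeq2 and limma-voom called 0. The kininases, peptidases that degrade kinins, supplied most of the first count, with 7 of 12 upregulated in the Spns1 KO-labelled libraries and 1 of 12 in FeO.

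Among the substrates, the kininogen gene Kng1 had 3.84 to 8.23 CPM in WT, 4.77 to 6.90 in the Spns1 KO-labelled libraries and 7.69 to 11.1 in FeO. It rose in FeO (log2 fold change 0.73, standard error 0.22, adjusted p = 0.0157, edgeR), and in the Spns1 KO-labelled libraries its log2 fold change was 0.02 (adjusted p = 0.946). A further kininogen gene, Kng2, also rose in FeO (0.61, adjusted p = 0.0188, edgeR). The kinin receptor gene Bdkrb2, through which bradykinin acts, fell from 5.36 ± 0.636 CPM over the 5 WT libraries (SD) to 2.88 ± 0.628 over the 4 Spns1 KO-labelled libraries (SD) (log2 fold change -0.89, standard error 0.27, adjusted p = 0.0277, edgeR). In FeO it had 1.93 to 5.96 CPM (-0.51, adjusted p = 0.132). The call in the Spns1 KO-labelled libraries was lost in 7 of 13 fits that left out a single library, those without Spns1 KO-labelled libraries 1, 2 or 3 or without WT 2, 3, 4 or 5 (adjusted p up to 0.0919, edgeR).

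Ace, the kininase that also makes angiotensin II, rose from 38.6 ± 4.6 CPM over the 5 WT libraries (SD) to 86.5 ± 16.6 over the 4 Spns1 KO-labelled libraries (SD) (log2 fold change 1.16, standard error 0.21, adjusted p = 0.0019, edgeR). It had 28.5 ± 10.2 CPM over the 4 FeO libraries (SD), with a log2 fold change of -0.44 (adjusted p = 0.108, edgeR). Set directly against FeO, the Spns1 KO-labelled libraries had 4 of the 10 named kallikrein-kinin genes called higher, Ace among them, where 6.76% of all genes were called higher and 8.10% lower. Genes of the list outside these 10 were called in both directions, as given below. Other kininases of the brush border rose as well in the Spns1 KO-labelled libraries, namely Xpnpep2 (1.28, adjusted p = 0.00192), Anpep (1.01, adjusted p = 0.0188) and Mme, neprilysin (0.86, adjusted p = 0.0197, all edgeR). The summed proximal tubule markers were higher in the same libraries, as given above. Without Spns1 KO-labelled library 1 the calls of Anpep and Mme were lost (adjusted p = 0.0681 and 0.0788, edgeR), and without Spns1 KO-labelled library 2 that of Anpep (adjusted p = 0.0513, edgeR). Thop1, a cytosolic kininase, rose in FeO (0.81, adjusted p = 0.00924, edgeR).

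Serping1, the C1 inhibitor gene whose product blocks plasma kallikrein, rose from 10.8 ± 1.34 CPM over the 5 WT libraries (SD) to 37.1 ± 6.56 over the 4 Spns1 KO-labelled libraries (SD) (log2 fold change 1.78, standard error 0.29, adjusted p = 0.00092, edgeR). In FeO its log2 fold change was 0.68 (adjusted p = 0.0683, edgeR). Without FeO 4 it was 0.17 (adjusted p = 0.482, edgeR), and it passed the limits by DESeq2 (adjusted p = 0.0455), without the count filter (adjusted p = 0.0474, edgeR) and without FeO 2 or FeO 3 (adjusted p = 0.0165 and 0.0385, edgeR). Among proteins that kallikreins can process, Scnn1g, the gamma subunit of the epithelial sodium channel, fell from 77.4 ± 22.5 CPM over the 5 WT libraries (SD) to 42.2 ± 6.43 over the 4 Spns1 KO-labelled libraries (SD) (log2 fold change -0.87, standard error 0.25, adjusted p = 0.0194, edgeR). That call was lost without Spns1 KO-labelled library 3 or without WT 5 (adjusted p = 0.0718 and 0.0525, edgeR). The alpha and beta subunit genes, Scnn1a and Scnn1b, were not called in the Spns1 KO-labelled libraries (log2 fold changes -0.46 and -0.24, adjusted p = 0.219 and 0.511, edgeR). Ren1, the renin gene, rose in FeO from 28.9 ± 8.35 to 52.1 ± 7.03 CPM (SD, n = 5 and 4) (log2 fold change 0.85, standard error 0.21, adjusted p = 0.00551, edgeR).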

How the data were processed

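RNA carrying 4-thiouracil was captured from mouse kidney, enriched for polyadenylated RNA and sequenced from both ends. The authors deposited an estimated count per gene symbol and library, without normalization. The table is named for kallisto, and the submitters' processing notes list bcl2fastq 2.19, kallisto 0.44.0, DESeq2 and the build GRCm38, whereas the methods describe alignment with STAR and counting with HTSeq. The counts were whole numbers as deposited, so rounding changed nothing. Strand use was not stated. Counts of near-identical paralogs depend on how shared reads were divided.

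The 13 libraries were scaled with TMM factors and the 16468 genes kept by filterByExpr were tested in 1 fit with edgeR 4.0.16 (quasi-likelihood test, group as the only term, Benjamini-Hochberg adjustment over all genes; limma 3.58.1, DESeq2 1.42.0, R 4.3.3). A gene was called at an adjusted p under 0.05 and a log2 fold change beyond 0.5. The script was tested on simulated data. Likeness was Pearson's r of log2 CPM (prior count 2). Sequences came from GENCODE and RefSeq. Pairs of libraries in a group were compared by the chi-square of their counts, divided by its degrees of freedom, where a library deposited 2 times would give about 1. WT 1 and WT 2 were the closest pair (7.89, next lowest 37.2), above sampling noise, and were kept as separate libraries. With WT 1 or WT 2 left out, edgeR still called 0 members in FeO. The members and gene lists were chosen with earlier results of these data known. The text names all 10 members, the kallikrein-kinin genes called in either model (at most 10, by absolute log2 fold change) with Kng1, Bdkrb2 and Ace, and the 5 genes most like Klk1 and Klk1b22. Kng2, Dpp4, Ece1, Klkb1, Scnn1a, Scnn1b, Serpina3c, Klk1b9, Klk1b7-ps, Klk1b11, Klk1b16, Klk8, the cell type markers and the other neighbours named lie outside this rule. Alternatives were upper-quartile factors, library totals, no count filter, DESeq2, limma-voom, only the 2 groups compared, a replicate block, removal of a length and GC trend, the 10 members summed, and leaving out each library.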

Additional observations from a re-analysis of the deposited data

Results flagged for a closer look

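Among the 56 sets of 4 or 5 libraries examined for the named genes, 5 held a library far from the rest of its group. The limit used is passed by about 1 in 20 sets of independent, normally distributed values. CPM values need not be so distributed, and the sets share the same 13 libraries, so that rate may not apply here. For the members, the distant values were Klk1 in Spns1 KO-labelled library 2, at 1936 CPM against 1190 CPM in the next, and Klk1b5 in WT 5, at 3.09 CPM against 1.41 CPM in the next. Mme stood at 151 CPM in Spns1 KO-labelled library 1, Ren1 at 14.1 CPM in WT 4 and Thop1 at 5.80 CPM in Spns1 KO-labelled library 4. Without Spns1 KO-labelled library 2, the log2 fold change of Klk1 against WT was 1.84.

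Of the 10 named kallikrein-kinin genes, 4 differed between the Spns1 KO-labelled libraries and FeO by edgeR's quasi-likelihood test of that difference, each higher in the Spns1 KO-labelled libraries. Over all genes tested, 6.76% were called higher and 8.10% lower in this comparison. The 10 were named for being called in either model against WT, so the 4 are no measure of how often such differences occur. Of the list genes outside the 10, Dpp4 and Ece1 were also called higher (0.76 and 0.66, adjusted p = 0.0156 and 0.0118, edgeR). Klkb1, Scnn1a and Serpina3c were called lower in the Spns1 KO-labelled libraries than in FeO (-1.04, -1.08 and -2.34, adjusted p = 0.0228, 0.0211 and 0.0438, edgeR). Serpina3c had 0 to 29 counts in the Spns1 KO-labelled libraries. The log2 difference was 1.60 for Ace (standard error 0.23, adjusted p = 0.00182) and 1.60 for Xpnpep2 (standard error 0.26, adjusted p = 0.00294). It was 1.10 for Serping1 (standard error 0.31, adjusted p = 0.0279) and 1.02 for Mme (standard error 0.26, adjusted p = 0.0181). For the members this difference was not tested, because they were chosen on the Spns1 KO-labelled libraries.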

How the results depend on the processing

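In the Spns1 KO-labelled libraries, the log2 fold change of Klk1b22 lay between -6.57 and -6.13 over 21 alternatives and that of Klk1 between 1.69 and 2.13. The counts of members called in FeO moved from 0 higher to 1 with a replicate block and to between 0 and 2 when each library was left out, and from 0 lower to 2 after removal of the length and GC trend (98.3% of tested genes had both values) and to between 0 and 1. Kallikrein-kinin genes called higher in FeO (4) numbered 7 without the count filter, 7 by DESeq2 and 3 to 8 with a library left out (8 without FeO 2). Those called lower in FeO (0) numbered 0 to 3 with a library left out (3 without FeO 4, 1 without FeO 1). In the Spns1 KO-labelled libraries, the 8 called higher became 5 with the replicate block and 4 to 9 with a library left out (4 without Spns1 KO-labelled library 1), and the 2 called lower became 4 by DESeq2, 1 with the block and 0 to 3 with a library left out (0 without WT 5, and 1 without Spns1 KO-labelled library 1, 2 or 3 or WT 2, 3 or 4). Neighbouring genes called lower (0) became 1 with library totals, 1 by DESeq2, 1 by limma-voom, 1 with only the 2 groups compared and 0 to 3 with a library left out (3 without Spns1 KO-labelled library 4, 1 without FeO 3), and those called higher stayed at 5 or 6. Directions reversed in FeO for Klk1 without FeO 4 (-0.014; -0.014 to 0.84 over libraries left out), Klk1b24 with the block (0.14) and without WT 5 (-0.38 to 0.16), Klk1b27 without FeO 2 (-0.92 to 0.014), and Mme after the trend was removed (0.73) and without WT 4 or FeO 2 (-0.36 to 0.052). Kng1 in the Spns1 KO-labelled libraries reversed with library totals (-0.11) and without Spns1 KO-labelled library 2 or WT 1, 2 or 3 (-0.094 to 0.24). The cause was not tested. Deviations of libraries with the same number from their group means had r from -0.296 to 0.256 over 12 pairs, 4 of them over 0.1. Pairs with unlike numbers were not compared, so these values do not decide whether the numbers pair the libraries. The paper describes the controls as littermates, but the labels do not say which libraries belong together, and the main fit used no pairing. Depth limits the low members, such as Klk1b21 with 5 to 39 counts per library.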
